A study of Mus musculus with 24 samples.

Results

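The genes described are 56 named genes of distal mouse chromosome 3, on and around Cdcs1, a locus that governs susceptibility to colitis in mice without interleukin 10. They were taken by symbol from a list that was chosen with earlier results of these data known. All 56 were found among the 18193 genes measured, with 138 probe sets. Transcripts were measured on 24 Affymetrix arrays, with total RNA of macrophages grown for 6 days from the bone marrow of male mice, 3 donors per genotype. Each of 4 strains was measured unstimulated and after 4 h with 1 µg/mL of a flagellin, with 3 arrays per group, and RNA of 3 wells was pooled per sample. Mouse ages are not given in the labels, and the array numbers are not tied to a mouse, so the p-values reflect only how far these arrays vary, which may be technical.

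All 4 strains carry the targeted Il10 allele Il10tm1Cgn, controls included. B6 is C57BL/6J-Il10tm1Cgn, the colitis-resistant parent, and C3Bir is C3H/HeJBir-Il10tm1Cgn, the susceptible parent. BC-R3 (B6.Cg-Il10tm1Cgn Cdcs1) carries the C3Bir form of the region on the B6 background. CB-R1 (C3Bir.Cg-Il10tm1Cgn Cdcs1), which is resistant, carries a long B6 element of chromosome 3 on the C3Bir background. Each congenic strain thus differs from its background parent in a whole segment with many genes, whose ends are not given in the sources used here. C3Bir and BC-R3 are called the C3Bir form below, and B6 and CB-R1 the B6 form. The probe set for Il10 read between 6.36 and 8.70 over the 24 arrays. Its place relative to the targeted site is not given here, so it does not check the genotype.

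A congenic strain carries a chromosome segment of one strain on the genome of another, so a gene inside the segment can differ in sequence, promoter included, while genes elsewhere are shared. Macrophages grown from bone marrow sense bacterial products such as flagellin and in turn make cytokines, and interleukin 10 normally restrains that response. The genes described here are mostly housekeeping genes of metabolism, membrane traffic, RNA processing and signalling rather than immune genes.

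Macrophage markers were present on every array: the lowest value among 10 of them was 7.78 (Mertk), and Csf1r and Adgre1, which encode a growth factor receptor and the F4/80 antigen of macrophages, did not fall below 13.48 and 12.22, against array medians of 6.55 to 6.64. Markers of neutrophils were also high on all arrays, with a mean of 11.64 to 13.50 over 5 genes. Markers of B cells, of T and NK cells, of dendritic cells and of mast cells had means of 5.68 to 6.52. Stromal markers ranged more widely, from 7.07 to 9.33 over 6 genes. Unstimulated arrays 2 and 3 of B6 stood apart, with means of 10.2 and 10.28 over 10 cytokine genes, and unstimulated arrays 2 and 3 of C3Bir read 8.65 and 8.57, while the other 20 arrays lay between 7.0 and 7.89. These 4 arrays are called the 4 high arrays below. On RNA of whole cultures, fewer cells of a type and less RNA per cell cannot be told apart.

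The first question was which of the genes differ with the form of the segment over both backgrounds and both conditions. This average allele effect is the mean of 4 differences, BC-R3 minus B6 and C3Bir minus CB-R1, each unstimulated and with flagellin, and rests on all 24 arrays. A gene was called where limma's p, adjusted by Benjamini-Hochberg over all 18193 genes, was under 0.05. Of the 56 genes, 19 were called, 10 higher in the C3Bir form and 9 lower. Over all genes 1.3% were called, 0.709% higher and 0.588% lower. The median absolute effect was 0.155 log2 units over the 56 genes and 0.0441 over all genes. The share of called genes in the list is given as a description.

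The called genes were higher in some cases and lower in others, and in 4 of 10 functional groups both directions occurred. Largest in size were Miga1 and Dnajb14, higher in the C3Bir form by 1.63-fold and 1.47-fold, then Cryz, higher by 1.38-fold, and Ttf2, lower by 1.26-fold. None of the 19 reached a 2-fold difference. Each gene is read by 1 probe set, and when all probe sets of each gene were averaged 15 of the 19 kept their call, Pdlim5 and Pkn2 lost it, and Slc30a7 and Camk2d turned sign and lost it. All 19 passed with 24 arrays, and 9 of them passed whichever array was left out: Wdr3, Ap4b1, Slc30a7, Ap1ar, Larp7, Dnajb14, Pdlim5, Cryz and Miga1. Without the 4 high arrays 6 were called, namely Miga1, Dnajb14, Cryz, Slc30a7, Larp7 and Trim45, and the effects of the 19 moved by at most 0.0974 log2 units. On the 12 flagellin arrays alone only Miga1 was called among the 56, at an adjusted p of 0.00648 in limma. Without array 3 of C3Bir with flagellin 10 were called.

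**Figure D1:**
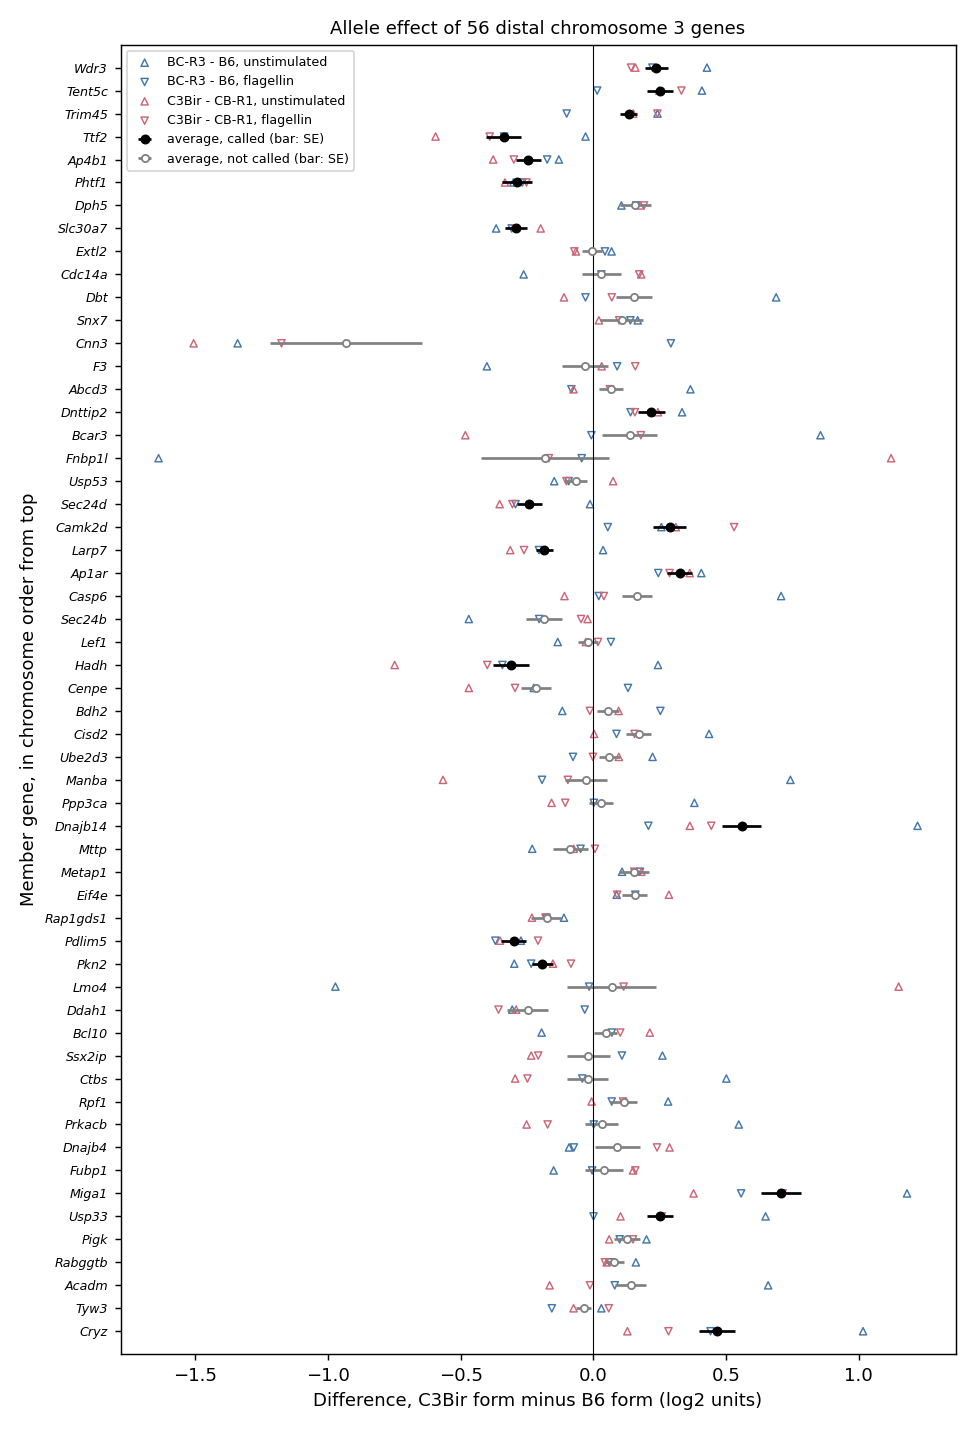
Difference between the C3Bir form and the B6 form in log2 units (x axis) for each of the 56 genes in chromosome order (y axis), with the average of 4 comparisons as filled points where called and open grey points where not (bars: SE), and the 4 single comparisons as small open symbols. The filled points lie on both sides of 0, from 0.71 for Miga1 to -0.34 for Ttf2, and Cnn3, at -0.93, is not called and has a wide bar.

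Genes of metabolism and mitochondria made up 10 of the 56, and 2 of them, Miga1 and Cryz, were higher in the C3Bir form while 1, Hadh, was lower. Miga1 encodes mitoguardin 1, a protein of the mitochondrial outer membrane involved in mitochondrial fusion. Miga1 gave log2 values of 6.73, 6.21 and 6.31 on the unstimulated B6 arrays against 7.26, 7.81 and 7.72 on BC-R3, and with flagellin 6.73, 6.85 and 6.91 against 7.53, 7.43 and 7.19. CB-R1 arrays gave Miga1 values of 7.15, 7.31 and 6.88 unstimulated and 6.91, 7.11 and 6.87 with flagellin, against 7.57, 7.34 and 7.55 and 7.46, 7.84 and 7.73 on C3Bir. Within each background all 6 arrays of the C3Bir form lay above all 6 arrays of the B6 form, and the lowest values were those of unstimulated B6 arrays 2 and 3. Miga1 averaged 0.71 ± 0.08 (SE) log2 units in the C3Bir form against the B6 form, 1.63-fold higher (adjusted p = 2.88e-05, limma). A second probe set of Miga1 differed by 0.27 log2 units in the same direction (adjusted p = 0.00212 over all probe sets, limma).

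Cryz encodes zeta-crystallin, an NADPH-dependent quinone reductase. Cryz gave log2 values of 7.32, 7.28 and 7.05 on the unstimulated B6 arrays against 7.98, 8.26 and 8.45 on BC-R3, and with flagellin 7.47, 7.45 and 7.75 against 8.22, 7.97 and 7.81. CB-R1 arrays gave Cryz values of 7.87, 8.10 and 7.52 unstimulated and 7.68, 7.73 and 7.75 with flagellin, against 8.09, 7.88 and 7.90 and 7.98, 8.01 and 8.03 on C3Bir. The forms were apart in all comparisons except the unstimulated C3Bir background, where CB-R1 array 2 reached the level of C3Bir. Cryz averaged 0.47 ± 0.07 (SE) log2 units in the C3Bir form against the B6 form, 1.38-fold higher (adjusted p = 0.00135, limma). A second probe set differed by 0.10 log2 units, with an adjusted p of 0.26 in limma.

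Hadh encodes the mitochondrial 3-hydroxyacyl-CoA dehydrogenase of fatty acid oxidation. Hadh gave log2 values of 9.76, 9.48 and 9.52 on the unstimulated B6 arrays against 9.45, 9.99 and 10.04 on BC-R3, and with flagellin 9.99, 10.05 and 10.19 against 9.85, 9.81 and 9.55. CB-R1 arrays gave Hadh values of 10.66, 10.59 and 10.33 unstimulated and 10.41, 10.54 and 10.38 with flagellin, against 10.03, 9.66 and 9.64 and 10.03, 10.08 and 10.02 on C3Bir. CB-R1 was above every array of the other strains, whereas unstimulated B6 and BC-R3 overlapped, so the low B6 form there was at the level of BC-R3. Hadh averaged -0.31 ± 0.07 (SE) log2 units in the C3Bir form against the B6 form, 1.24-fold lower (adjusted p = 0.0313, limma). Its 2 other probe sets were lower too, by -0.26 and -0.14 log2 units. The call did not hold in 10 of the 24 fits that each left out 1 array (adjusted p up to 0.0683 in limma).

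The other 7 genes of this group were not called in the average: Acadm (medium-chain acyl-CoA dehydrogenase), Dbt (a subunit of the branched-chain keto acid dehydrogenase), Abcd3 (a peroxisomal transporter), Bdh2 (a hydroxybutyrate dehydrogenase), Cisd2 (an iron-sulfur protein of the endoplasmic reticulum), Mttp (lipid transfer in lipoprotein assembly) and Ddah1 (breakdown of methylated arginine). Their average effects lay between -0.25 for Ddah1 and 0.17 for Cisd2.

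**Figure D2:**
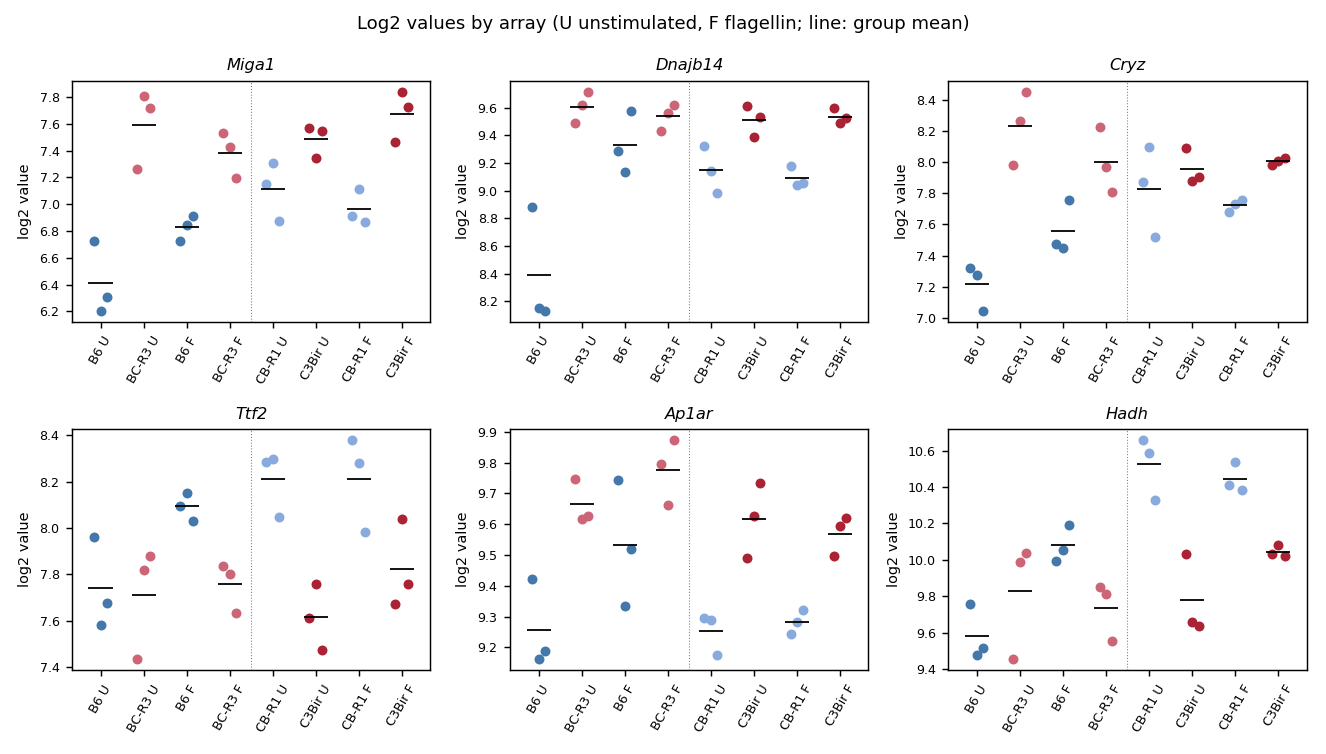
Log2 values (y axis) on each of the 24 arrays for the 6 genes with the largest average allele effect that were called, grouped by strain and condition (x axis, U unstimulated, F flagellin; points: arrays; line: mean of 3 arrays; dotted line: border between the B6 and the C3Bir background). Within each background Miga1 of the C3Bir form lies above that of the B6 form on every array, and unstimulated B6 is lowest for Miga1, Dnajb14 and Cryz.

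Of the pair of DnaJ chaperones, 1 was called. Dnajb14 encodes a membrane-bound J-protein of the endoplasmic reticulum. Dnajb14 gave log2 values of 8.88, 8.15 and 8.13 on the unstimulated B6 arrays against 9.49, 9.62 and 9.71 on BC-R3, and with flagellin 9.29, 9.14 and 9.58 against 9.44, 9.56 and 9.62. CB-R1 arrays gave Dnajb14 values of 9.32, 9.14 and 8.98 unstimulated and 9.18, 9.04 and 9.05 with flagellin, against 9.62, 9.39 and 9.53 and 9.60, 9.49 and 9.53 on C3Bir. In the C3Bir background all 6 arrays of C3Bir were above all 6 of CB-R1, and in the B6 background unstimulated B6 was far below BC-R3 while B6 with flagellin overlapped it through array 3. Dnajb14 averaged 0.56 ± 0.07 (SE) log2 units in the C3Bir form against the B6 form, 1.47-fold higher (adjusted p = 5.61e-04, limma). A second probe set was higher by 0.38 log2 units (adjusted p = 0.0196, limma). Dnajb4, a cytosolic partner of Hsp70 proteins, had an average effect of 0.09 log2 units and was not called.

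Among 7 genes of membrane coats and sorting, Ap1ar was higher in the C3Bir form and Ap4b1 and Sec24d were lower. Ap1ar encodes a regulator bound to the clathrin adaptor AP-1. Ap1ar gave log2 values of 9.42, 9.16 and 9.19 on the unstimulated B6 arrays against 9.75, 9.62 and 9.63 on BC-R3, and with flagellin 9.74, 9.33 and 9.52 against 9.79, 9.66 and 9.87. CB-R1 arrays gave Ap1ar values of 9.30, 9.29 and 9.18 unstimulated and 9.24, 9.28 and 9.32 with flagellin, against 9.49, 9.63 and 9.73 and 9.50, 9.59 and 9.62 on C3Bir. In the C3Bir background the forms did not overlap, and in the B6 background B6 array 1 with flagellin reached the level of BC-R3. Ap1ar averaged 0.33 ± 0.05 (SE) log2 units in the C3Bir form against the B6 form, 1.25-fold higher (adjusted p = 0.00109, limma). Its other probe set gave 0.32 log2 units (adjusted p = 9.44e-04, limma).

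Ap4b1 encodes the beta subunit of the adaptor complex AP-4, which sorts cargo at the trans-Golgi. Ap4b1 gave log2 values of 7.13, 7.17 and 7.16 on the unstimulated B6 arrays against 6.88, 7.05 and 7.14 on BC-R3, and with flagellin 7.29, 7.19 and 7.08 against 7.11, 7.03 and 6.89. CB-R1 arrays gave Ap4b1 values of 7.33, 7.5 and 7.12 unstimulated and 7.30, 7.45 and 7.25 with flagellin, against 6.89, 7.06 and 6.86 and 7.06, 6.95 and 7.09 on C3Bir. CB-R1 was above C3Bir on all arrays of both conditions, and in the B6 background the forms overlapped. Ap4b1 averaged -0.25 ± 0.05 (SE) log2 units in the C3Bir form against the B6 form, 1.19-fold lower (adjusted p = 0.017, limma). A second probe set gave -0.02 log2 units. Sec24d encodes a cargo-binding subunit of the COPII coat. Sec24d gave log2 values of 9.18, 8.87 and 8.84 on the unstimulated B6 arrays against 8.99, 8.95 and 8.92 on BC-R3, and with flagellin 9.49, 9.02 and 9.27 against 8.96, 8.94 and 9.0. CB-R1 arrays gave Sec24d values of 9.01, 8.78 and 8.71 unstimulated and 9.01, 8.99 and 9.05 with flagellin, against 8.48, 8.44 and 8.52 and 8.73, 8.68 and 8.73 on C3Bir. Unstimulated B6 and BC-R3 overlapped, and the other 3 comparisons had the C3Bir form below. Sec24d averaged -0.24 ± 0.05 (SE) log2 units in the C3Bir form against the B6 form, 1.18-fold lower (adjusted p = 0.0234, limma). The remaining genes of the group, Sec24b (another COPII subunit), Fnbp1l (an F-BAR protein that bends membranes), Snx7 (a sorting nexin) and Rabggtb (a subunit of Rab geranylgeranyl transferase), had average effects of -0.19, -0.18, 0.11 and 0.08 log2 units and were not called.

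Among 5 genes of glycans, lipid anchors and zinc transport, 1 was called. Slc30a7 encodes ZnT7, a carrier that moves zinc into the Golgi. Slc30a7 gave log2 values of 9.48, 9.60 and 9.62 on the unstimulated B6 arrays against 9.11, 9.21 and 9.28 on BC-R3, and with flagellin 9.53, 9.60 and 9.43 against 9.31, 9.13 and 9.20. CB-R1 arrays gave Slc30a7 values of 9.38, 9.35 and 9.37 unstimulated and 9.37, 9.37 and 9.42 with flagellin, against 8.98, 9.34 and 9.19 and 9.16, 8.94 and 9.17 on C3Bir. All 12 arrays of the C3Bir form, between 8.94 and 9.34, were below all 12 arrays of the B6 form, between 9.35 and 9.62. Slc30a7 averaged -0.29 ± 0.04 (SE) log2 units in the C3Bir form against the B6 form, 1.22-fold lower (adjusted p = 0.00109, limma). The second probe set of Slc30a7 pointed the opposite way, 0.35 log2 units higher in the C3Bir form (adjusted p = 0.00212, limma), and the mean of both was 0.03. The direction for the gene as a whole is therefore not settled by these arrays, and the part of sequence variants under either probe set was not tested. Extl2 (heparan sulfate synthesis), Pigk (GPI anchor attachment), Manba (lysosomal beta-mannosidase) and Ctbs (lysosomal chitobiase) had average effects of -0.01, 0.13, -0.03 and -0.02 log2 units.

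Slc30a7 and Extl2 start head to head, and so do Cryz and Tyw3. The RefSeq promoter windows of these 4 genes (GRCm38.p6, from 250 bases before to 50 after the start, 300 bases) are shown because the partners of each pair share part of the window but only 1 of them was called. Capitals mark the stretch shared with the partner, 142 bases in the first pair and 198 in the second, read on opposite strands. The letters are those of the reference strain C57BL/6J, and the C3Bir sequence was not used here.
Extl2, chr3:116007199-116007498, plus strand: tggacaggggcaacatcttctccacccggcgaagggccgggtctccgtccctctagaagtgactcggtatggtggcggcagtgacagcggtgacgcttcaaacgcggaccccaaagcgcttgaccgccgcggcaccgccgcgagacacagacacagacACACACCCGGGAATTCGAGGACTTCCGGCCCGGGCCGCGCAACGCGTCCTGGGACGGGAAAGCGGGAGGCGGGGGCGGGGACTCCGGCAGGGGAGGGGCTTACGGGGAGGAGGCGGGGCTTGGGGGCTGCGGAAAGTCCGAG
Slc30a7, chr3:116007357-116007656, minus strand: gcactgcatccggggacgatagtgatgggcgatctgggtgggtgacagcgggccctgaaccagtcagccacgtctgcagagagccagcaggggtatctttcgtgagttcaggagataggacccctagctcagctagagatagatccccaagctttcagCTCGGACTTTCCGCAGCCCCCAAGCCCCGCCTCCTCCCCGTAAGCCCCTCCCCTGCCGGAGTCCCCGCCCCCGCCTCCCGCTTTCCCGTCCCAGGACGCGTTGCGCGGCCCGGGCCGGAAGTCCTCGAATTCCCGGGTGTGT
Cryz, chr3:154596947-154597246, plus strand: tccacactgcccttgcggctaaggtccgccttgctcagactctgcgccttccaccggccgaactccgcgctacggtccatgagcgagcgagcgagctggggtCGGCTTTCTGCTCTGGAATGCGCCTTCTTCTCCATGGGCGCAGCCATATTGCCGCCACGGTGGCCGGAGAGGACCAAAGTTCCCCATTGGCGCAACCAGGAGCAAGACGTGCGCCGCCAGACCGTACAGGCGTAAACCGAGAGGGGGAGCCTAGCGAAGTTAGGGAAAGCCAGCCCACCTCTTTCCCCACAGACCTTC
Tyw3, chr3:154597049-154597348, minus strand: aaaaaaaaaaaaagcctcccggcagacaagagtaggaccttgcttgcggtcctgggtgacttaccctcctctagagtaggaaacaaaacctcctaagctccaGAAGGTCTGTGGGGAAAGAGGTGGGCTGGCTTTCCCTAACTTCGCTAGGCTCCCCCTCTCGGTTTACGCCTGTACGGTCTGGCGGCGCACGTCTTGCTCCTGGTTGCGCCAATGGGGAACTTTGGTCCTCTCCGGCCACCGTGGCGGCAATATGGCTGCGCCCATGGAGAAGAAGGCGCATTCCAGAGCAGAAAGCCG

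Slc30a7 was 0.29 log2 units lower in the C3Bir form while Extl2, whose window holds the same 142 bases, differed by -0.01 ± 0.04 (SE; adjusted p = 0.960, limma). By the mean of both its probe sets Slc30a7 differed by 0.03 log2 units, so the contrast within this pair rests on the probe set used. Cryz was 0.47 log2 units higher while Tyw3, which encodes an enzyme of tRNA wybutosine synthesis, differed by -0.04 ± 0.03 (adjusted p = 0.593, limma). Tyw3 read between 5.97 and 6.23, below the array medians of 6.55 to 6.64, so a weak signal may limit what it shows. By its second probe set Cryz differed by 0.10 log2 units (adjusted p = 0.26, limma), so this contrast too rests on the probe set used. The third such pair, Dnajb4 and Fubp1 with 162 shared bases, had effects of 0.09 and 0.04 log2 units and neither was called. Windows were listed for 48 of the 56 genes, 69 windows in all, and not for Rpf1, Miga1, Usp53, Usp33, Pigk, Rap1gds1, Dbt and Ppp3ca. The GC box letters GGGCGG, searched on both strands, were in 42 of the 69 windows (60.9%) and in 35.7% of 32851 windows of the same length. The letters CCAAT were in 36.2% against 37.4%, and TATAAA in 8.70% against 13.6%. Counted by gene, the GC box letters were in at least 1 window of 35 of the 48 genes. Among called genes with a window, they were in 5 of 8 that were higher and in 7 of 9 that were lower. These matches describe letters in the reference sequence and say nothing of binding.

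Of 11 genes of RNA processing, ribosomes and translation, 3 were higher in the C3Bir form (Tent5c, Wdr3, Dnttip2) and 2 were lower (Ttf2, Larp7). Ttf2 encodes a factor that releases RNA polymerase II from its template. Ttf2 gave log2 values of 7.96, 7.58 and 7.68 on the unstimulated B6 arrays against 7.43, 7.82 and 7.88 on BC-R3, and with flagellin 8.10, 8.15 and 8.03 against 7.83, 7.80 and 7.63. CB-R1 arrays gave Ttf2 values of 8.28, 8.30 and 8.05 unstimulated and 8.38, 8.28 and 7.98 with flagellin, against 7.61, 7.76 and 7.47 and 7.67, 8.04 and 7.76 on C3Bir. The forms were apart in B6 with flagellin and in the unstimulated C3Bir background and overlapped elsewhere. Ttf2 averaged -0.34 ± 0.07 (SE) log2 units in the C3Bir form against the B6 form, 1.26-fold lower (adjusted p = 0.0199, limma). A second probe set gave -0.24 log2 units (adjusted p = 0.0139, limma). Larp7 encodes a subunit of the 7SK ribonucleoprotein that holds the elongation factor P-TEFb. Larp7 gave log2 values of 8.74, 8.57 and 8.68 on the unstimulated B6 arrays against 8.62, 8.71 and 8.77 on BC-R3, and with flagellin 9.08, 8.96 and 8.94 against 8.85, 8.79 and 8.73. CB-R1 arrays gave Larp7 values of 9.06, 8.99 and 8.91 unstimulated and 8.96, 8.91 and 8.95 with flagellin, against 8.57, 8.75 and 8.70 and 8.66, 8.73 and 8.64 on C3Bir. C3Bir was below CB-R1 on all arrays, and unstimulated B6 was as low as BC-R3. Larp7 averaged -0.19 ± 0.03 (SE) log2 units in the C3Bir form against the B6 form, 1.14-fold lower (adjusted p = 0.00866, limma).

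Tent5c encodes a noncanonical poly(A) polymerase. Tent5c gave log2 values of 9.97, 9.69 and 9.50 on the unstimulated B6 arrays against 10.17, 10.10 and 10.12 on BC-R3, and with flagellin 10.16, 9.90 and 10.05 against 10.08, 10.05 and 10.02. CB-R1 arrays gave Tent5c values of 10.05, 10.09 and 10.21 unstimulated and 9.99, 9.98 and 10.03 with flagellin, against 10.28, 10.41 and 10.40 and 10.13, 10.40 and 10.45 on C3Bir. The C3Bir form was above on all arrays except in B6 with flagellin, where the forms overlapped. Tent5c averaged 0.25 ± 0.05 (SE) log2 units in the C3Bir form against the B6 form, 1.19-fold higher (adjusted p = 0.0199, limma). Its second probe set gave 0.21 log2 units (adjusted p = 0.0316, limma).

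Wdr3 and Dnttip2 encode proteins of early ribosomal RNA processing. Wdr3 gave log2 values of 8.57, 8.35 and 8.47 on the unstimulated B6 arrays against 8.82, 9.03 and 8.83 on BC-R3, and with flagellin 8.83, 8.49 and 8.68 against 8.97, 8.94 and 8.77. CB-R1 arrays gave Wdr3 values of 8.76, 8.71 and 8.56 unstimulated and 8.60, 8.65 and 8.68 with flagellin, against 8.75, 8.88 and 8.87 and 8.70, 8.89 and 8.78 on C3Bir. The lowest values were those of unstimulated B6 arrays 2 and 3, and the forms overlapped in B6 with flagellin and in the unstimulated C3Bir background. Wdr3 averaged 0.24 ± 0.04 (SE) log2 units in the C3Bir form against the B6 form, 1.18-fold higher (adjusted p = 0.0145, limma). Dnttip2 gave log2 values of 8.89, 8.74 and 8.73 on the unstimulated B6 arrays against 9.15, 9.12 and 9.10 on BC-R3, and with flagellin 9.14, 8.69 and 8.95 against 9.16, 8.95 and 9.09. CB-R1 arrays gave Dnttip2 values of 8.75, 8.78 and 8.80 unstimulated and 8.75, 8.87 and 8.90 with flagellin, against 8.82, 9.06 and 9.19 and 8.89, 8.95 and 9.15 on C3Bir. Unstimulated arrays kept the forms apart in both backgrounds, and arrays with flagellin did not. Dnttip2 averaged 0.22 ± 0.05 (SE) log2 units in the C3Bir form against the B6 form, 1.16-fold higher (adjusted p = 0.0402, limma). It was called in 7 of the 24 fits that each left out 1 array (adjusted p up to 0.0915 in limma). Other genes of the group were not called in the average: Dph5 (diphthamide synthesis, 0.16 log2 units), Metap1 (methionine aminopeptidase, 0.15), Eif4e (the cap-binding protein, 0.16), Rpf1 (ribosome production, 0.11), Tyw3 and Fubp1. The other probe set of Dph5, which read lower on average (6.24 against 8.22), pointed the opposite way, at -0.56 ± 0.05 log2 units (SE; adjusted p = 2.37e-06 over all probe sets, limma), so neither a direction nor the lack of a difference is settled for Dph5.

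Of 7 genes of kinases, phosphatases and small GTPases, Camk2d was higher in the C3Bir form and Pkn2 was lower. Camk2d encodes the delta chain of calcium/calmodulin-dependent protein kinase II. Camk2d gave log2 values of 9.40, 9.49 and 9.31 on the unstimulated B6 arrays against 9.87, 9.41 and 9.69 on BC-R3, and with flagellin 9.76, 9.22 and 9.31 against 9.56, 9.37 and 9.52. CB-R1 arrays gave Camk2d values of 9.06, 8.91 and 8.78 unstimulated and 8.60, 8.78 and 8.73 with flagellin, against 9.06, 9.35 and 9.28 and 9.13, 9.26 and 9.31 on C3Bir. C3Bir with flagellin was above CB-R1 on all arrays, and the forms overlapped in the other 3 comparisons. Camk2d averaged 0.29 ± 0.06 (SE) log2 units in the C3Bir form against the B6 form, 1.22-fold higher (adjusted p = 0.0313, limma). Of its 6 other probe sets, 2 differed in the same direction (0.23 and 0.18 log2 units) and 4 in the opposite one, down to -0.44 (adjusted p = 8.90e-04, limma), and the mean over all was -0.01. The direction for this gene is therefore not settled. Its call held in 13 of the 24 fits without 1 array.

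Pkn2 encodes a serine/threonine protein kinase. Pkn2 gave log2 values of 8.43, 8.55 and 8.67 on the unstimulated B6 arrays against 8.18, 8.25 and 8.32 on BC-R3, and with flagellin 8.60, 8.33 and 8.33 against 8.30, 8.13 and 8.13. CB-R1 arrays gave Pkn2 values of 8.40, 8.48 and 8.63 unstimulated and 8.32, 8.41 and 8.38 with flagellin, against 8.26, 8.39 and 8.40 and 8.28, 8.25 and 8.33 on C3Bir. In the B6 background BC-R3 was below B6 on every array, and in the C3Bir background the forms overlapped with flagellin. Pkn2 averaged -0.19 ± 0.04 (SE) log2 units in the C3Bir form against the B6 form, 1.14-fold lower (adjusted p = 0.028, limma). The other probe set of Pkn2 differed by -0.04 log2 units (adjusted p = 0.757), and with the mean of both the difference was -0.12 and was not called (adjusted p = 0.153, limma). The call held in 18 of the 24 fits without 1 array. Cdc14a (a phosphatase), Ppp3ca (the catalytic subunit of calcineurin), Prkacb (a catalytic subunit of protein kinase A), Bcar3 (an adaptor in integrin signalling) and Rap1gds1 (a chaperone of small GTPases) had average effects between -0.17 and 0.14 log2 units and were not called.

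Of 4 genes of the ubiquitin system, 2 were higher in the C3Bir form. Usp33 encodes a deubiquitinase. Usp33 gave log2 values of 8.08, 7.93 and 7.91 on the unstimulated B6 arrays against 8.48, 8.60 and 8.79 on BC-R3, and with flagellin 8.47, 8.22 and 8.33 against 8.54, 8.24 and 8.24. CB-R1 arrays gave Usp33 values of 8.13, 8.27 and 8.04 unstimulated and 7.94, 8.09 and 8.11 with flagellin, against 8.24, 8.17 and 8.33 and 8.33, 8.17 and 8.41 on C3Bir. The widest gap was between unstimulated B6 and BC-R3, and with flagellin those 2 strains overlapped. Usp33 averaged 0.25 ± 0.05 (SE) log2 units in the C3Bir form against the B6 form, 1.19-fold higher (adjusted p = 0.0199, limma). Trim45 encodes a RING-type ubiquitin ligase. Trim45 gave log2 values of 6.66, 6.88 and 6.97 on the unstimulated B6 arrays against 7.04, 7.11 and 7.08 on BC-R3, and with flagellin 7.07, 7.04 and 7.11 against 6.91, 6.97 and 7.03. CB-R1 arrays gave Trim45 values of 6.92, 6.89 and 6.91 unstimulated and 6.93, 6.88 and 6.84 with flagellin, against 7.11, 7.08 and 6.98 and 7.08, 7.19 and 7.11 on C3Bir. B6 with flagellin was above BC-R3, against the direction of the other 3 comparisons. Trim45 averaged 0.13 ± 0.03 (SE) log2 units in the C3Bir form against the B6 form, 1.10-fold higher (adjusted p = 0.0495, limma). It was called in 5 of the 24 fits that each left out 1 array. Ube2d3 (a ubiquitin-conjugating enzyme) and Usp53 had average effects of 0.06 and -0.07 log2 units.

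Pdlim5 and Phtf1 completed the 19. Pdlim5 encodes a PDZ and LIM protein of the actin cytoskeleton. Pdlim5 gave log2 values of 9.56, 9.57 and 9.63 on the unstimulated B6 arrays against 9.17, 9.34 and 9.45 on BC-R3, and with flagellin 9.61, 9.69 and 9.56 against 9.31, 9.35 and 9.09. CB-R1 arrays gave Pdlim5 values of 9.63, 9.67 and 9.44 unstimulated and 9.52, 9.69 and 9.52 with flagellin, against 9.12, 9.31 and 9.25 and 9.18, 9.49 and 9.43 on C3Bir. The forms were apart in each of the 4 comparisons, with the C3Bir form below. Pdlim5 averaged -0.30 ± 0.05 (SE) log2 units in the C3Bir form against the B6 form, 1.23-fold lower (adjusted p = 0.0029, limma). Of its 6 other probe sets 4 were lower too and 2 were higher, by 0.06 log2 units each, and none of the 6 was called. With the mean of all its probe sets the difference was -0.12 log2 units and was not called (adjusted p = 0.353, limma). Phtf1 is named after a putative homeodomain. Phtf1 gave log2 values of 8.10, 8.16 and 8.23 on the unstimulated B6 arrays against 7.74, 7.86 and 7.98 on BC-R3, and with flagellin 8.08, 8.28 and 8.08 against 7.96, 8.01 and 7.66. CB-R1 arrays gave Phtf1 values of 8.47, 8.19 and 7.98 unstimulated and 8.17, 8.17 and 8.05 with flagellin, against 7.70, 8.0 and 7.95 and 7.79, 7.92 and 7.92 on C3Bir. Only the unstimulated C3Bir background showed an overlap for Phtf1. Phtf1 averaged -0.29 ± 0.06 (SE) log2 units in the C3Bir form against the B6 form, 1.22-fold lower (adjusted p = 0.0199, limma).

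Cnn3, which encodes the actin-binding calponin 3, had the largest average difference of the 56, -0.93 ± 0.29 log2 units (SE), and was not called (adjusted p = 0.0991, limma). Cnn3 gave log2 values of 6.97, 8.65 and 9.14 on the unstimulated B6 arrays against 6.36, 7.16 and 7.20 on BC-R3, and with flagellin 7.11, 8.28 and 5.83 against 8.0, 7.79 and 6.31. CB-R1 arrays gave Cnn3 values of 8.49, 7.94 and 7.69 unstimulated and 8.11, 7.78 and 7.76 with flagellin, against 5.69, 7.04 and 6.88 and 6.28, 7.26 and 6.58 on C3Bir. Arrays of B6 spread over more than 3 log2 units, and C3Bir was below CB-R1 on every array. All 5 other probe sets of Cnn3 were lower in the C3Bir form, by -0.50 to -0.99 log2 units, with adjusted p from 0.0591 to 0.203. Stromal markers moved beside it: their mean over 6 genes was 8.35 to 8.84 in CB-R1, 7.18 to 7.90 in C3Bir, 7.07 to 9.33 in B6 and 7.34 to 8.54 in BC-R3, with a median average effect of -0.80 log2 units and 1 of 6 called lower. Their part in the Cnn3 values was not tested.

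The other genes of the list outside the called ones were Lmo4 and Lef1 (transcription), Cenpe (a kinetochore kinesin), Ssx2ip (a centrosome protein), Casp6 (an effector caspase), Bcl10 (an adaptor of NF-kB signalling downstream of CARD proteins) and F3 (tissue factor), with average effects between -0.21 for Cenpe and 0.16 for Casp6. F3 read between 4.47 and 5.53, close to the lower quartiles of the arrays (5.29 to 5.42). Over all comparisons of the forms, 19 genes were called in the average, 16 only in another one, and 21 in none. Of these 21, apart from Cnn3, average effects lay between -0.25 and 0.16 log2 units, with adjusted p of 0.0966 or more, by the probe set used for each gene. Dph5 is among them, and its other probe set differed by -0.56 log2 units, as given above.

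Next the forms were compared within each background and condition, with 3 arrays against 3. Unstimulated BC-R3 differed from B6 in 28 of the 56 genes, 21 higher and 7 lower. Over all genes 30.3% were called, 17.6% higher and 12.7% lower. Highest were Dnajb14 at 1.22 ± 0.15 log2 units (SE), Miga1 at 1.18 ± 0.15 and Cryz at 1.02 ± 0.14. Bcar3, Manba, Casp6, Dbt, Acadm, Usp33, Prkacb and Ctbs followed at 0.86, 0.74, 0.71, 0.69, 0.66, 0.65, 0.55 and 0.50 log2 units. Lowest were Fnbp1l at -1.64 ± 0.48 and Lmo4, a LIM-only cofactor of transcription, at -0.97 ± 0.33.

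The metabolic genes accounted for 6 of the 21 rises, with none lower: Acadm, Dbt, Abcd3, Cisd2, Miga1 and Cryz. Smaller rises were those of Cisd2 (0.44 log2 units), Wdr3 (0.43), Tent5c and Ap1ar (0.41 each), Ppp3ca (0.38), Abcd3 (0.37), Dnttip2 (0.33), Rpf1 (0.28), Trim45 (0.24) and Ube2d3 (0.22). Falls beside Fnbp1l and Lmo4 were those of Sec24b (-0.47 log2 units), Slc30a7 (-0.37), Phtf1 and Pkn2 (-0.30 each) and Pdlim5 (-0.27). Adjusted p over the 28 ranged from 1.54e-04 for Dnajb14 to 0.0483 for Phtf1 in limma. In the same comparison 8 of 10 cytokine genes and 10 of 10 interferon-stimulated genes were called lower in BC-R3, with medians of -2.22 and -2.33 log2 units, and 4 of 10 macrophage markers were called higher. The part of this difference between the cultures in the members' calls was not tested. Without the 4 high arrays, which leave 1 unstimulated B6 array, none of the 56 was called, and B6 array 1 alone stands for the group there. A fit of the 6 compared arrays alone called none either, and without B6 array 3 the count was 18.

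Values on each array are given for 4 of the genes that were called in this comparison and not in the average. Casp6 gave log2 values of 8.09, 7.85 and 7.95 on the unstimulated B6 arrays against 8.38, 8.75 and 8.88 on BC-R3, and with flagellin 8.56, 8.50 and 8.45 against 8.57, 8.56 and 8.44. Acadm gave log2 values of 9.68, 9.28 and 9.28 on the unstimulated B6 arrays against 9.72, 10.21 and 10.28 on BC-R3, and with flagellin 9.96, 9.82 and 10.07 against 10.08, 10.09 and 9.93. In both genes B6 was lower than BC-R3 when unstimulated, B6 array 1 being the nearest to BC-R3 for each, and with flagellin the differences were 0.02 and 0.08 log2 units. Lmo4 gave log2 values of 10.89, 11.19 and 11.19 on the unstimulated B6 arrays against 11.08, 9.64 and 9.63 on BC-R3, and with flagellin 11.13, 10.51 and 10.55 against 10.72, 10.49 and 10.94. Fnbp1l gave log2 values of 11.02, 11.38 and 11.43 on the unstimulated B6 arrays against 11.17, 8.97 and 8.78 on BC-R3, and with flagellin 10.88, 9.71 and 10.03 against 10.17, 9.89 and 10.44. BC-R3 array 1 read like B6 in these last genes and BC-R3 arrays 2 and 3 lay lower.

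With flagellin BC-R3 and B6 differed in 0 of the 56 genes (0.0165% of all genes, 3 genes, were called), and 14 of the 56 (25%) had an unadjusted p under 0.05 in limma, against 3.64% of all genes. For Miga1 the difference was 0.56 log2 units with a 95% confidence interval of 0.24 to 0.87, so the fit does not show that the strains were alike. Unstimulated C3Bir differed from CB-R1 in 4 of the 56, all lower: Hadh by -0.75 ± 0.14 log2 units (adjusted p = 0.0195), Ttf2 by -0.59 ± 0.13 (0.0382), the kinetochore kinesin Cenpe by -0.47 ± 0.11 (0.0499) and Larp7 by -0.31 ± 0.06 (0.0273), all in limma. Over all genes 1.01% were called in this comparison, 0.225% higher and 0.781% lower. Without any single one of 4 arrays, unstimulated C3Bir 2 or 3 or unstimulated CB-R1 1 or 2, the count was 0, and without C3Bir array 1 it was 15. It was 9 without array 1 of unstimulated B6 or BC-R3, 8 without unstimulated CB-R1 array 3, and 2 without array 2 of BC-R3 or CB-R1 with flagellin. With flagellin C3Bir and CB-R1 differed in 0 of the 56 (0.055% of all genes, 10 genes), with 18 (32.1%) at an unadjusted p under 0.05 in limma, against 8.09% of all genes. The nearest to a call was Miga1, 0.71 log2 units higher (adjusted p = 0.0885). Without C3Bir array 1 with flagellin 1 gene was called.

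BC-R3 minus B6 and C3Bir minus CB-R1 share no array, so the signs can be set side by side. Averaged over both conditions the differences had the same sign in 38 of the 56 genes (67.9%) and in 41.1% of all genes. Across the 56 genes Pearson's r was 0.32, against -0.26 across all genes. On flagellin arrays the sign was shared by 39 of 56 (69.6%; r = 0.44) and by 46.8% of all genes. On unstimulated arrays it was shared by 32 of 56 (57.1%; r = -0.02) and by 35.1% of all genes (r = -0.46). These correlations are across genes measured on the same arrays and are not independent points. Fnbp1l and Lmo4 were the farthest from a shared direction when unstimulated, at -1.64 and -0.97 log2 units in BC-R3 minus B6 and at 1.12 and 1.15 in C3Bir minus CB-R1.

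**Figure D3:**
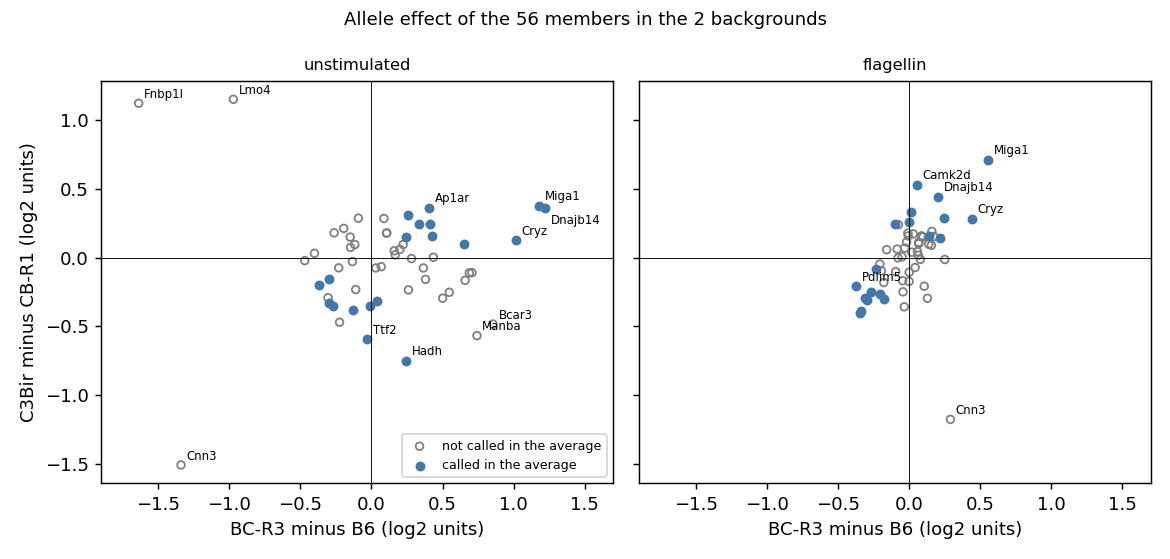
Difference between C3Bir and CB-R1 (y axis, log2 units) against that between BC-R3 and B6 (x axis, log2 units) for the 56 genes, unstimulated (left) and with flagellin (right), with genes called in the average filled. With flagellin 39 of 56 points lie in the quadrants of shared sign, against 32 of 56 unstimulated, where Fnbp1l and Lmo4 lie far up and to the left.

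The difference between the forms, taken with its sign, was itself compared between backgrounds. It was called for 10 of the 56 genes, the signed value being higher in the C3Bir background for 1 (Lmo4) and lower for 9. Over all genes 13.4% were called (4.08% higher, 9.29% lower). A lower signed value can be a fall in the C3Bir background, as for Hadh. Hadh was lower in the C3Bir form by -0.57 log2 units in the C3Bir background. In the B6 background it averaged -0.05, with -0.34 on flagellin arrays and unstimulated means of 9.83 in BC-R3 and 9.58 in B6. The backgrounds differed by -0.52 ± 0.14 (SE, adjusted p = 0.0195 in limma). Manba, the lysosomal mannosidase, changed sign, from 0.27 in the B6 background to -0.33 in the C3Bir background (difference -0.61 ± 0.16, adjusted p = 0.0206). Manba gave log2 values of 9.09, 8.45 and 8.30 on the unstimulated B6 arrays against 9.02, 9.50 and 9.54 on BC-R3, and with flagellin 9.46, 9.37 and 9.48 against 9.36, 9.31 and 9.06. CB-R1 arrays gave Manba values of 9.60, 9.51 and 9.38 unstimulated and 9.30, 9.35 and 9.33 with flagellin, against 9.19, 8.79 and 8.80 and 9.25, 9.22 and 9.20 on C3Bir. Arrays 2 and 3 of both unstimulated parents were the lowest, and with flagellin all strains lay between 9.06 and 9.48. On flagellin arrays alone none of the 10 differences was called (adjusted p from 0.796 to 0.989 in limma), and without the 4 high arrays none was either (0.380 to 0.667). Without array 1 of unstimulated B6 or of unstimulated BC-R3 the count was 18. Without unstimulated B6 2 or 3, BC-R3 2 or 3, or C3Bir 3 it was 5, and it was 6 without unstimulated C3Bir 2, CB-R1 1 or 2, or BC-R3 1 or 2 with flagellin. Cytokine genes moved beside it, 5 of 10 being called higher in the same contrast.

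**Figure D4:**
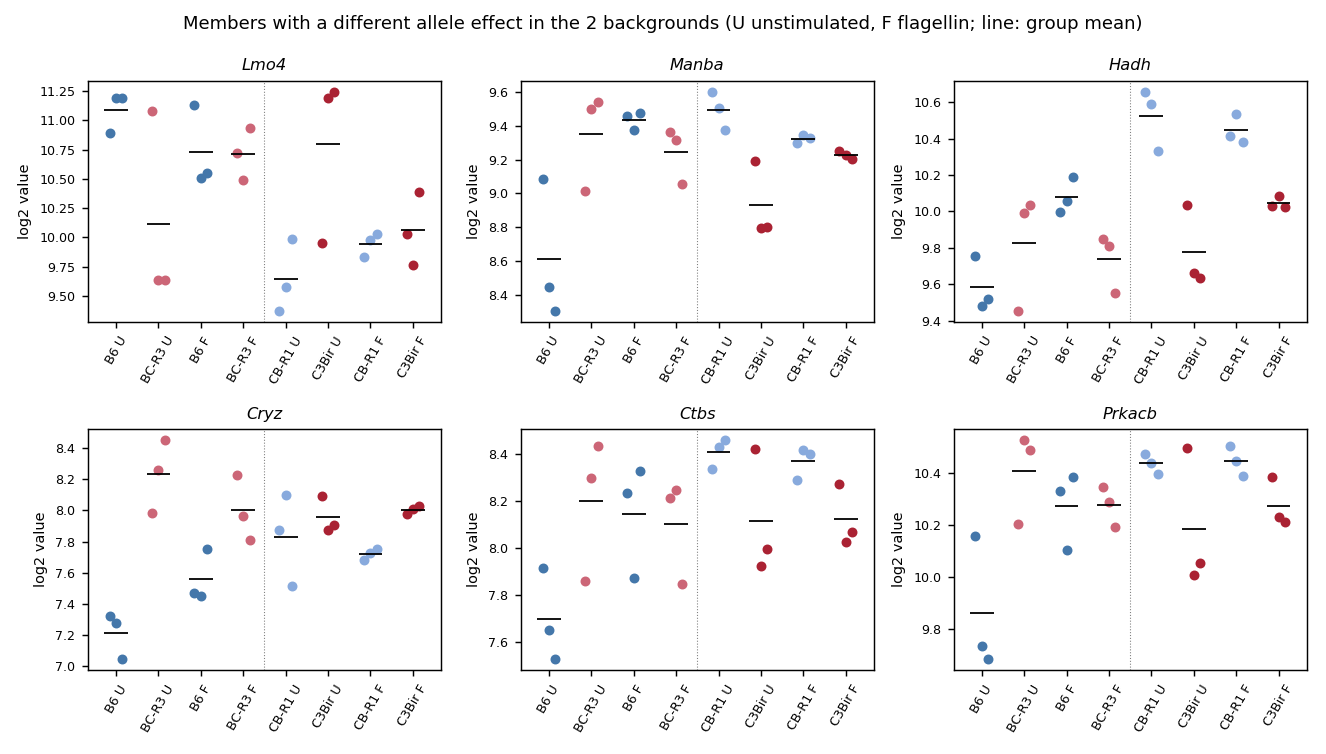
Log2 values (y axis) on each of the 24 arrays for 6 genes whose difference between the forms depended on the background (x axis: strain and condition, U unstimulated, F flagellin; points: arrays; line: mean of 3 arrays; dotted line: border between backgrounds). Arrays 2 and 3 of unstimulated B6 are the highest or among the highest for Lmo4 and the lowest for Manba, at 8.45 and 8.30.

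The difference between the forms did not depend on the condition in a called way for any of the 56 genes (0 of all genes, 0% called), with 5 of the 56 and 1649 of all genes at an unadjusted p under 0.05 in limma and a lowest adjusted p of 0.532. Without unstimulated B6 array 1 the count was 1 of the 56.

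The backgrounds were compared at a fixed form of the segment. C3Bir and BC-R3, which both carry the C3Bir form, differed in 5 of the 56 genes: Tent5c was higher in C3Bir by 0.26 log2 units, and Dnajb4, Sec24d, Camk2d and Eif4e were lower by -0.43, -0.36, -0.34 and -0.21. Over all genes 12.9% were called, 6.44% higher and 6.42% lower. Without unstimulated B6 array 1 the count was 8. CB-R1 and B6, which both carry the B6 form, differed in 27 of the 56, 17 higher in CB-R1 and 10 lower (29.9% of all genes, 19.3% higher and 10.6% lower). Hadh was 0.65 ± 0.10 log2 units higher in CB-R1, and Bcar3, Ctbs and Cenpe were higher by 0.48, 0.47 and 0.46. Fnbp1l was lower by -1.67 ± 0.34, Lmo4 by -1.11 ± 0.24, Dnajb4 by -0.78 ± 0.12 and Camk2d by -0.60 ± 0.09. In the same contrast 5 of 5 neutrophil markers were called higher in CB-R1 (median 0.83 log2 units), 3 of 6 stromal markers were higher and 1 was lower, and 6 of 10 cytokine genes were lower (median -1.17). Their part in the members' calls was not tested. Dnajb4 and Camk2d were lower on the C3Bir background at either form, by the 1 probe set used for each. Their other probe sets were not examined in these contrasts.

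Dnajb4 gave log2 values of 8.79, 8.97 and 9.06 on the unstimulated B6 arrays against 9.13, 8.72 and 8.70 on BC-R3, and with flagellin 9.15, 8.94 and 8.67 against 8.81, 8.69 and 9.04. CB-R1 arrays gave Dnajb4 values of 8.18, 8.04 and 8.25 unstimulated and 8.15, 8.10 and 8.21 with flagellin, against 7.97, 8.70 and 8.66 and 8.13, 8.46 and 8.59 on C3Bir. The 12 arrays of the B6 background reached from 8.67 to 9.15 and those of the C3Bir background from 7.97 to 8.70. Whether the difference at the C3Bir form is smaller than that at the B6 form was tested as the effect by background above and was not called for Dnajb4 or Camk2d. On flagellin arrays alone 6 of the 56 were called between CB-R1 and B6, and the share over all genes in that fit is not given here.

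The response to flagellin was examined in each strain. In B6 18 of the 56 genes rose and none fell, while 22.4% of all genes were called, 12.9% higher and 9.49% lower. Dnajb14 rose by 0.95 ± 0.15 log2 units (SE), Manba by 0.83 ± 0.16, Bcar3 by 0.64 ± 0.21, Dbt by 0.55 ± 0.14, Casp6 by 0.54 ± 0.12 and Acadm by 0.54 ± 0.12, with adjusted p between 0.00193 and 0.0324 in limma. Metabolic genes held 5 of the 18 rises (Dbt, Hadh, Acadm, Abcd3, Cisd2). Marker levels moved in the same contrast: the mean over 10 cytokine genes was 9.43 ± 1.4 (SD, n = 3) unstimulated and 7.45 ± 0.18 with flagellin, and over 10 interferon-stimulated genes 12.68 ± 0.53 and 10.12 ± 1.37, so both were lower with flagellin. In C3Bir the cytokine mean was 8.13 unstimulated and 7.30 with flagellin, in BC-R3 7.32 and 7.45, and in CB-R1 7.085 and 7.22. Interferon-stimulated genes gave 10.63 and 10.38, 10.40 and 10.38, and 10.55 and 11.18 in the same strains. The part of these marker levels in the 18 rises of B6 was not tested. This contrast shares the 3 unstimulated B6 arrays with the comparison of BC-R3 and B6, so its calls are not separate evidence on those genes. Without the 4 high arrays the count was 0, a fit of the 6 B6 arrays alone gave 0, and leaving out 1 array gave 6 to 25, with 7 and 6 without unstimulated arrays 2 and 3, and 10 and 8 without flagellin arrays 1 and 3. In C3Bir, BC-R3 and CB-R1 none of the 56 was called, nor was any other gene (0%), and 6, 2 and 0 of the 56 (10.7%, 3.57% and 0%) had an unadjusted p under 0.05 in limma. Over all genes the shares were 7.87%, 8.71% and 2.84%, so the members' shares were near or below them.

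Along chromosome 3, 913 measured genes had a place in the RefSeq gene order, and the 56 genes lay between the 575th and the 896th. Within that span 29 genes were called in the average allele effect, the 19 members and 10 of 266 other genes (3.76%). Before it 6 of 574 were called (1.05%), after it 1 of 17, and on other chromosomes 199 of 17119 (1.16%). The members were chosen with earlier results of these data known, so their share beside that of other genes is a description only. Neighbours among the members went opposite ways as well as the same way. Larp7 and Ap1ar follow each other in the list with effects of -0.19 and 0.33 log2 units, Trim45 and Ttf2 with 0.13 and -0.34, and Ap4b1 and Phtf1 with -0.25 and -0.29. Of 19 measured immune genes of the same arm, 5 were called, and Ifi44l, Gbp2b and Olfml3, at 4.81, 4.12 and -2.53 log2 units, were the 3 largest average differences of all 236 genes called. Miga1 ranked 14th among these, Dnajb14 21st and Cryz 34th.

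**Figure D5:**
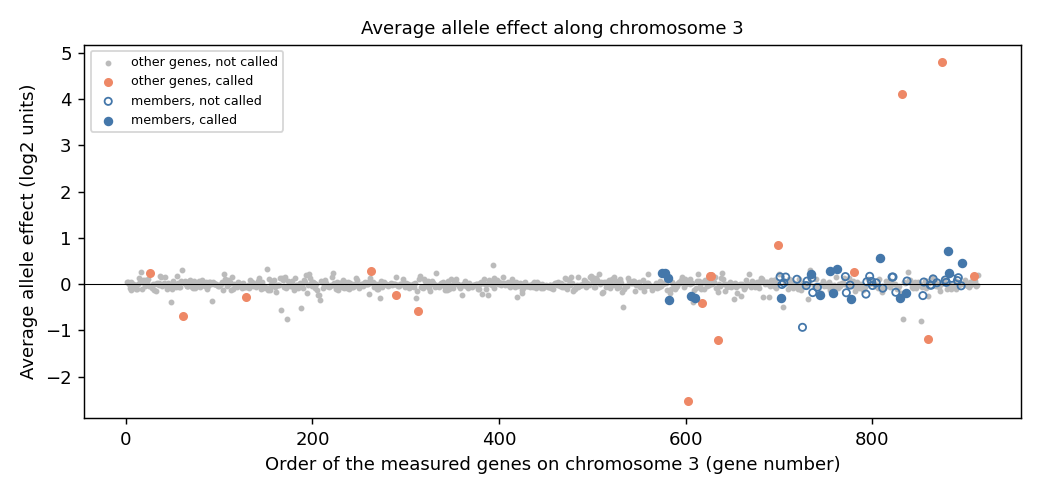
Average allele effect (y axis, log2 units) of the 913 measured genes of chromosome 3 against their order on the chromosome (x axis, gene number), with members in blue and other called genes in orange. Filled blue points, the 19 called members, lie on both sides of 0 between gene 575 and gene 896, and the largest differences, such as Ifi44l at 4.81, belong to other genes of the same stretch.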

How the data were processed

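The authors deposited 1 table of log2 values for 45037 probe sets on 24 arrays; their computation and normalization are not given in the sources used here, and no further scaling was applied. Array medians lay between 6.55 and 6.64, arrays of 1 group correlated at 0.986 to 0.998, and no pair held identical values. The number of arrays limits the precision.

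Probe sets were named through a platform annotation: of all 45037, 34945 had 1 symbol, 932 had several and 9160 had none. Values were present for 45033. Each of 18193 genes was the one-symbol probe set whose mean over the 24 arrays was highest, and the other probe sets of the 56 genes were examined too. Gene order, for 18032 genes, and promoter windows came from RefSeq tables of GRCm38.p6. Probes can bind less well where strains differ in sequence, which was not tested.

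A linear model of 8 group means was fitted to all genes with limma 3.58.1 in R 4.3.3 (16 residual degrees of freedom) followed by eBayes, for 13 contrasts. P-values are two-sided and adjusted by Benjamini-Hochberg over all genes within a contrast, and calls have an adjusted p under 0.05. The procedure was tested on simulated data. The genes, the lists and the naming rule were chosen with earlier results of these data known, so the share of called genes in the list is no independent evidence. By that rule, genes called in the average allele effect are given on every array, those called in another comparison of the forms with their effect, and the rest by ranges; Cnn3, Dnajb4 and the 4 genes shown for unstimulated BC-R3 against B6 were added after their values were seen.

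Array numbers paired the samples in 3 of 12 pairs of groups examined (every correlation of deviations over 0.1). These were both conditions of C3Bir (0.307 to 0.484), both conditions of CB-R1 (0.299 to 0.505), and B6 and BC-R3 with flagellin (0.121 to 0.346). The other pairs of groups were not paired, and the correlation fell to -0.536 there, so no block was used. The arrays were thus treated as separate, though each strain had only 3 donors for both conditions, so its arrays share donors. Which arrays share a donor is not given. Contrasts over both conditions therefore count arrays as independent that are not. Alternatives were centring on array medians, quantile normalization, removal of low genes, averaging the probe sets of a gene, all probe sets tested separately, eBayes with trend and robust options, fits of the compared arrays alone, fixed and random blocks by number, a 2-fold threshold, leaving out each array, and leaving out the 4 high arrays or array 1 of each unstimulated strain but CB-R1. The fit of flagellin arrays alone was chosen after seeing the data.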

Additional observations from a re-analysis of the deposited data

Results flagged for a closer look

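The difference between the C3Bir form and the B6 form was itself different between the backgrounds for 10 of the 56 genes (17.9%). In this contrast, an interaction term in limma over all 24 arrays, 13.4% of all genes were called. Each value is the effect in the C3Bir background minus that in the B6 background, in log2 units with its SE. For Lmo4 it was 1.13 ± 0.33, from -0.49 in the B6 background to 0.63 in the C3Bir background (adjusted p = 0.0328). Manba went from 0.27 to -0.33, a difference of -0.61 ± 0.16 (0.0206), Prkacb from 0.27 to -0.21, -0.49 ± 0.13 (0.0197), Ctbs from 0.23 to -0.27, -0.50 ± 0.16 (0.0386), and Ppp3ca from 0.19 to -0.13, -0.32 ± 0.09 (0.0267).

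Acadm was 0.37 in the B6 background and -0.09 in the C3Bir background, -0.46 ± 0.12 (adjusted p = 0.0177 in limma), and Casp6 0.36 and -0.03, -0.40 ± 0.12 (0.0301). Cryz was higher in the C3Bir form in both, by 0.73 and 0.21, -0.52 ± 0.14 (0.0196). Hadh averaged -0.05 and -0.57, -0.52 ± 0.14 (0.0195), and Larp7 -0.08 and -0.29, -0.20 ± 0.06 (0.0425). In the B6 background these 2 genes were lower in BC-R3 with flagellin, by -0.34 and -0.21, but not unstimulated. Unstimulated means of BC-R3 and B6 were 9.83 and 9.58 for Hadh, and 8.70 and 8.66 for Larp7. In 24 fits that each left out 1 array, Acadm, Cryz, Hadh, Manba and Prkacb kept this call every time. Ppp3ca kept it in 17 of these fits, Casp6 in 12, Lmo4 in 10, Ctbs in 8 and Larp7 in 7. On flagellin arrays alone the 10 differences ranged from -0.21 to 0.13 log2 units, none of them called in limma, and 2 changed sign. In the same contrast 5 of 10 cytokine genes were called higher, and the part of the 4 high arrays, which carry the highest cytokine levels, was not tested beyond leaving them out: without them none of the 10 was called.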

How the results depend on the processing

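Counts are of the 56 genes called, and the shares over all genes under each setting are not given beside them. They therefore do not tell whether the 56 genes moved apart from all genes. Quantile normalization, median centring, the filter on low values (15389 genes and 55 of the 56 kept), the trend and robust options and all probe sets tested separately kept every count within 1.5 times of its reported value; averaging the probe sets of a gene did so except between C3Bir and BC-R3 (3 in place of 5). The fixed replicate block raised the unstimulated C3Bir against CB-R1 count from 4 to 8 and moved no other count by over 1.5 times. The random replicate block (estimated correlation 0.0916) moved no count by over 1.5 times. Of the 19 genes called in the average, 16 kept their call with the random block, 18 with the fixed block and 18 with the trend and robust options. At a 2-fold threshold 4 genes were left in unstimulated BC-R3 against B6, 1 by background, 2 in CB-R1 against B6, and 0 in unstimulated C3Bir against CB-R1, the average, C3Bir against BC-R3 and flagellin in B6. Fits of the compared arrays alone called 0 in unstimulated BC-R3 against B6, 0 in unstimulated C3Bir against CB-R1, 0 for flagellin in B6 and 3 in C3Bir against CB-R1 with flagellin. Without the 4 high arrays the counts were 0 in both unstimulated comparisons, 6 in the average, 0 by background, 13 in CB-R1 against B6 and 0 for flagellin in B6; the lone arrays of B6 and C3Bir are assumed there to vary like the other groups. Without array 1 of each unstimulated strain but CB-R1 they were 22 in unstimulated C3Bir against CB-R1, 4 with flagellin, 32 in the average (all 19 among them), 25 by background, 6 by condition, 10 in C3Bir against BC-R3, and 6 and 3 for flagellin in C3Bir and BC-R3. Flagellin arrays alone gave 1 in the average, 0 by background and 6 in CB-R1 against B6. Leaving out each array gave 18 to 29 in unstimulated BC-R3 against B6, 0 to 15 in unstimulated C3Bir against CB-R1, 0 to 1 with flagellin in that background, 10 to 25 in the average, 5 to 18 by background, 0 to 1 by condition, 4 to 8 in C3Bir against BC-R3, 21 to 28 in CB-R1 against B6 and 6 to 25 for flagellin in B6; the other counts stayed at 0. The causes of these changes were not tested.

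Signs turned for Slc30a7 (0.0307 log2 units with the mean of its probe sets, 0.353 with the other one), for Camk2d (-0.00552 with the mean, -0.0570, -0.0262, -0.216 and -0.436 with single ones), for Pdlim5 (0.0579 and 0.0649 with 2 others) and, by background on flagellin arrays alone, for Casp6 (0.0192) and Manba (0.0972). Values near the lower quartile, 5.29 to 5.42, carry no call of detection.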
